A study of Mus musculus with 12 samples.

Results

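Nes, Zic2 and Pou3f1 are early neural and primitive ectoderm genes whose transcripts carried N6-methyladenosine (m6A) peaks in mouse embryonic stem cells. They were taken by symbol from 4 deposited peak tables and make up 3 of the 6097 genes listed there, with 14 of the 32586 rows. They were chosen by the enrichment values of their peaks, which were lower in the knockdowns, so the direction of change given below is a description and was not tested. The cells were J1, an established mouse embryonic stem cell line, kept with leukemia inhibiting factor on irradiated mouse embryonic fibroblast feeders, infected with shRNA lentivirus and selected with puromycin. All 3 groups carried such a virus, encoding a scramble control, a Mettl14 or a Mettl3 shRNA. Poly(A) RNA was fragmented and pulled down with an anti-m6A antibody (the IP), which gave 2 IP libraries per group and 6 in all. The question was how the m6A map changes when a subunit of the methyltransferase is reduced.

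Mettl3 is the catalytic subunit of the nuclear complex that methylates adenosines in mRNA, and Mettl14 is its RNA-binding partner. The mark sits mostly in a short GGAC-like sequence, often in long exons and near stop codons, and it is known for shortening the life of marked mRNAs. Pou3f1 (also called Oct6) is a POU-homeodomain transcription factor of the primitive ectoderm and the early neural plate. Zic2 is a zinc finger transcription factor of the neural plate and dorsal neural tube. Nes encodes nestin, an intermediate filament protein of neural progenitor cells, which fibroblasts and muscle precursors can also make.

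Each table sets 1 knockdown IP library against 1 scramble IP library. The tables form 2 sets, each with 1 scramble, 1 Mettl14 knockdown and 1 Mettl3 knockdown library, so that the knockdowns of a set share their scramble library. A peak listed in both libraries is called shared here, and one listed in the scramble library alone is called lost. Enrichment is the peak caller's ratio of IP to input within a peak, and all enrichments, tag counts (sequenced fragments in a peak), widths and false discovery rates (FDR) are the authors' own values. Knockdown enrichments were multiplied by 1 constant per table before the authors compared them with scramble (for Mettl14, 0.906 in set 1 and 0.777 in set 2; for Mettl3, 1.00 and 0.609). Libraries held 4367 to 7886 peaks, and total reads were not in the tables. Of 8 fixed embryonic stem cell markers, 2 (Sox2 and Klf4) had a scramble peak in each set, and of 9 fixed feeder fibroblast markers 2 (Pdgfra and Pdgfrb) had one in set 1 and 1 (Pdgfrb) in set 2. The tables hold peaks and no expression, so they check neither the cell type nor the knockdown, and what feeder RNA contributed was not tested. Nothing in the labels says that the libraries of a group came from separate cultures.

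Over the 6 libraries the members had 18 separate calls, 7 in scramble and 11 in knockdown libraries. Coordinates are mm10, the transcript models are GENCODE release M21, and all 3 genes lie on the plus strand. Every Pou3f1 call lay on the single 3849 nt exon of that gene (chr4:124656807-124660655) and covered its whole coding sequence of 1347 nt. Every Zic2 call lay over exon 1 of 3 (chr14:122475435-122476747, 1313 nt) and covered all 1072 coding nt of that exon, with 63 to 148 nt outside the exon. Every Nes call lay inside the coding part of exon 4 of 4 (chr3:87975421-87980451, 5031 nt). No Zic2 or Nes call reached the stop codon. The sequences below show what lay under some summits (the position of highest signal in a call) and at some GGACT matches. The methylated base itself was not located. All of these sequences are coding except the one at the Pou3f1 stop codon, of which 3 of 29 nt are coding. They were read from the GENCODE M21 transcripts, run 5′ to 3′ on the transcribed strand, and have every GGAC in capitals.

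The Pou3f1 summit of the Mettl3 knockdown library in set 1 (chr4:124658148-124658248) lay 1 nt from that of the Mettl14 knockdown library in set 2 and held no GGAC. The next stretch (chr4:124658481-124658581) holds the only GGACT in the Pou3f1 coding sequence, and the short one (chr4:124659051-124659079) holds the GGACT just behind its stop codon.
Pou3f1 summit: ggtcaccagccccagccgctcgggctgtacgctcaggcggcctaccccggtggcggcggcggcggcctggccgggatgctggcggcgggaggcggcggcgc
Pou3f1 coding GGACT: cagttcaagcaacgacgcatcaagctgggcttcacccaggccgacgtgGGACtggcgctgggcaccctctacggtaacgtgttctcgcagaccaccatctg
Pou3f1 GGACT at the stop codon: cagtgaccctgcGGACtgggttccccgcc

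For Zic2, the first stretch (chr14:122476266-122476366) is centred on the summit of both Mettl3 knockdown libraries, and the second (chr14:122476014-122476072) holds the nearest GGACT matches.
Zic2 summit: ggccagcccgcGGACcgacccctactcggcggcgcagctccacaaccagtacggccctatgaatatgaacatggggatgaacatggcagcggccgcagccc
Zic2 GGACT matches: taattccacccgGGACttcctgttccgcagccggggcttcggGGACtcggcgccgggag

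For Nes, the first stretch (chr3:87975985-87976085) is the summit of the upstream scramble call of set 1. The second (chr3:87977755-87977855) is the summit of the downstream scramble call of set 1, and the third (chr3:87978426-87978526) that of the Mettl3 knockdown call of set 2.
Nes upstream summit: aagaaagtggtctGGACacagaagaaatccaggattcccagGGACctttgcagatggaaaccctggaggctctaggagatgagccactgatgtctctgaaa
Nes downstream summit: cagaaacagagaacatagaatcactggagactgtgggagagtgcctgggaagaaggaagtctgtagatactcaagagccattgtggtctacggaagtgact
Nes Mettl3 knockdown summit: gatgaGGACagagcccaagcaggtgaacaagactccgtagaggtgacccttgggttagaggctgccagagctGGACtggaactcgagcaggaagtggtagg

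**Figure D1:**
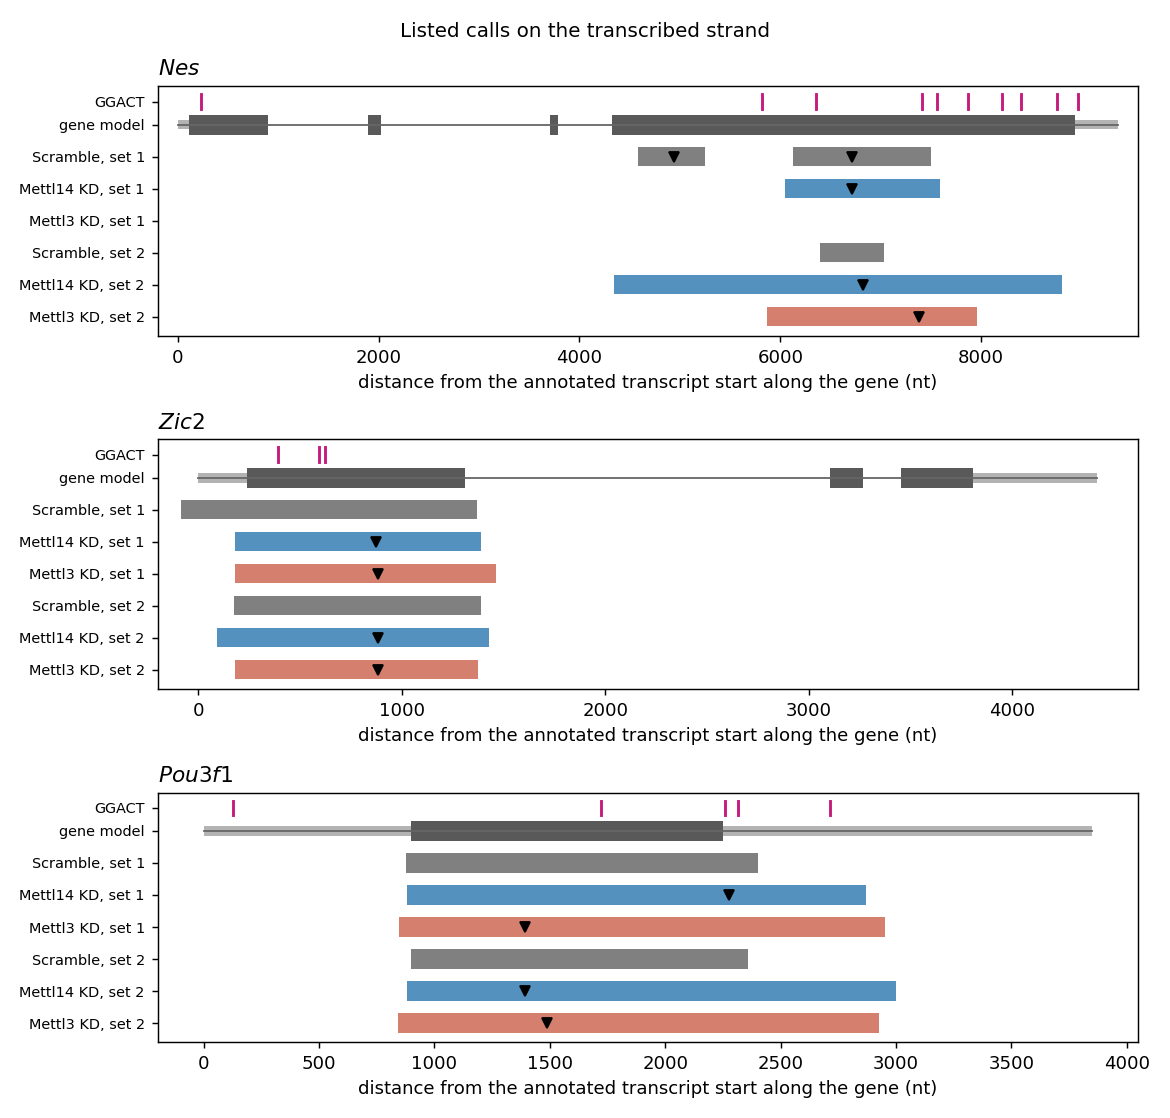
Calls of the 6 IP libraries on Nes, Zic2 and Pou3f1, as distance in nt from the transcript start (0), with 1 row per library, black triangles for the summits that the tables list, tall boxes for coding sequence, low boxes for untranslated exon and ticks for GGACT. Each single Pou3f1 and Nes bar of a knockdown library is longer than any single scramble bar of the same set. In set 1 the scramble library has 2 Nes bars, of 662 and 1376 nt, beside 1 of 1548 nt with Mettl14 knockdown. Nes has no bar for Mettl3 knockdown in set 1.

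Pou3f1 had the highest scramble enrichment of the 3 genes, 22.96 in set 1 and 19.15 in set 2. In set 1 the called enrichment was 12.79 with Mettl14 knockdown and 11.46 with Mettl3 knockdown, and in set 2 it was 7.31 and 6.78. All 4 knockdown values lay below both scramble values. In the authors' deposited tables the log2 change of knockdown over scramble was -0.99 in set 1 and -1.75 in set 2 for Mettl14. It was -1.0 and -2.21 for Mettl3. The set 2 changes were the larger ones for both knockdowns on this scale. Without the authors' constants the Mettl14 values were -0.84 and -1.39 and the Mettl3 values -1.0 and -1.50. With each table's median set to 0 they were -0.92 and -1.16 for Mettl14, and for Mettl3 -1.22 and -1.30, so that the sets differed little. These peaks rest on many fragments, 681 and 727 tags in set 1 and 653 and 640 in set 2 for Mettl14 and Mettl3. Their 307 to 345 tags per kb of call lay at the 97.2 to 98.8 percentile of all knockdown calls of their library, and their listed FDR was 0 in each.

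The Pou3f1 calls also differed in extent. The scramble calls were 1528 and 1458 nt wide and ended 157 and 110 nt past the last coding base. The knockdown calls were 1990 and 2108 nt wide in set 1 and 2117 and 2085 nt in set 2 for Mettl14 and Mettl3, and took in 624 to 752 nt of the 3′ untranslated region. Their ends lay 467 to 642 nt downstream of the scramble ends, while their starts differed by 5 to 57 nt. The widening was thus on the 3′ side in all 4 tables. The listed fold is thus between a mostly coding call in scramble and a call that holds more 3′ untranslated sequence. How far the added sequence enters the listed enrichment is not known.

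Zic2 had nearly the same scramble enrichment in both sets, 15.51 and 15.91. With Mettl14 knockdown it was 6.70 in set 1 and 6.58 in set 2. With Mettl3 knockdown it was 14.65 in set 1 and 6.94 in set 2. Mettl14 knockdown was thus low in both sets, while the Mettl3 knockdown library of set 1 stayed within 1.06-fold of its scramble library. In the authors' deposited tables the log2 change was -1.35 and -1.64 for Mettl14 and -0.08 and -1.91 for Mettl3. The spread between the Mettl3 libraries was therefore larger than the mean change they gave, and the low Mettl3 value rests on set 2. Without the constant that set 2 value was 2.29-fold lower in place of 3.77-fold, and with the table's median set to 0 its log2 change was -1.0.

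The Zic2 calls stayed over exon 1, though in set 1 both knockdown calls started 267 nt downstream of the scramble call. Knockdown calls were 1209 and 1281 nt wide in set 1 against 1457 nt in scramble, and 1335 and 1196 nt in set 2 against 1214 nt, for Mettl14 and Mettl3. Their summits fell at 122476309, 122476318, 122476316 and 122476316 on chromosome 14, within 9 nt of each other and 633 to 642 nt behind the start codon. The calls held 172 and 205 tags in set 1, then 188 and 164 in set 2, or 137 to 160 tags per kb, at the 57.8 to 67.0 percentile of knockdown calls. The 1.06-fold and the 3.77-fold difference with Mettl3 knockdown thus come from calls of like width, place and tag count. The listed FDR was 0.27% and 0.32% in set 1 and 6.78% and 6.12% in set 2.

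**Figure D2:**
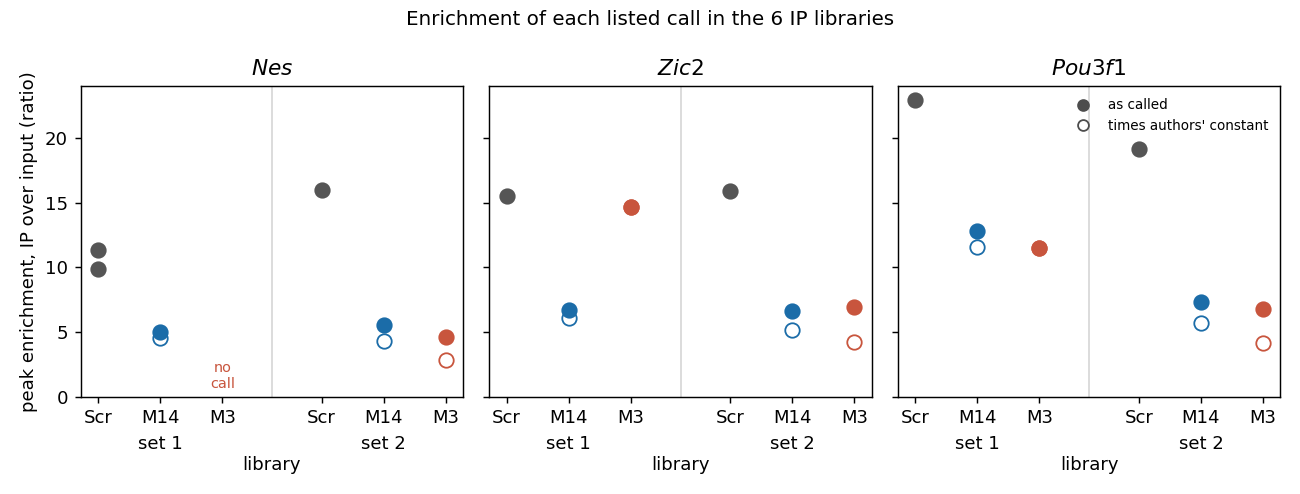
Enrichment (IP over input, a ratio, from 0) of each listed call of Nes, Zic2 and Pou3f1 in the scramble (Scr), Mettl14 knockdown (M14) and Mettl3 knockdown (M3) IP libraries of both sets, filled as called and open after the authors' constant. Each point is 1 call of 1 library, with no error bar, and for Pou3f1 and Nes all knockdown points lie below the scramble points, while Zic2 with Mettl3 knockdown in set 1 lies at 14.65 beside 15.51.

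Nes had 2 scramble calls in set 1, an upstream one with an enrichment of 11.33 (chr3:87975680-87976341, 54 tags, FDR 5.83%) and a downstream one with 9.90 (chr3:87977222-87978597, 132 tags, FDR 2.00%). Set 2 had 1 scramble call, inside the downstream one (chr3:87977493-87978124), with an enrichment of 16.01. The scramble libraries thus did not share the upstream call. With Mettl14 knockdown in set 1 the upstream call was lost, and the downstream one was called with 5.03 (chr3:87977136-87978683, 319 tags). With Mettl3 knockdown in set 1 both were lost, so that library lists no Nes peak at all. In set 2 the Mettl14 knockdown call had 5.54 (chr3:87975437-87979894, 797 tags) and the Mettl3 knockdown call 4.63 (chr3:87976961-87979050, 401 tags). The 3 called values lay below all 3 scramble values. In the authors' deposited tables the log2 change was -1.12 and -1.90 for Mettl14 and -2.51 for Mettl3 in set 2. The Mettl3 value was -1.79 without the constant and -1.59 with the table's median set to 0.

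Nes calls of set 2 differed more in width than in any other member. The scramble call was 632 nt wide, the Mettl14 knockdown call 4458 nt and the Mettl3 knockdown call 2090 nt. The Mettl14 knockdown call took in the ground of both set 1 scramble calls and left only 149 nt of the 4607 coding nt of exon 4 uncovered. Its width ratio of 7.05 to the scramble call was the largest of all 3060 shared peaks of that table, and the Mettl3 ratio of 3.31 was reached by 0.420% of shared peaks. The listed set 2 folds for Nes thus set a narrow scramble call against a broad knockdown call. How far the width enters the listed enrichment is not known. In set 1 the knockdown call was 1.13 times as wide as the scramble call, contained all 1376 nt of it and had its summit 3 nt away.

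For that set 1 pair the tag count of the scramble call was listed too, in the Mettl3 table. Enrichment and tags could thus be set side by side for calls over nearly the same stretch. The scramble library had 132 tags (95% Poisson interval 110 to 157) or 95.9 per kb, and the Mettl14 knockdown library 319 tags (interval 285 to 356) or 206 per kb. IP tags per kb were thus 2.15-fold higher in the knockdown library while the enrichment over input was 2.17-fold lower in the authors' deposited table. The intervals cover counting error only. Scramble tags are listed only for peaks lost with the other knockdown of the set, here Mettl3. That left 879 of the 4710 shared peaks of that table, with a median ratio of tags per kb of 0.737. As large a ratio as that of Nes was found in 0.341% of them, and higher tags went with lower enrichment in 10.4%. The 2 peaks with a larger ratio, in Tmem28 and Gtdc2, had log2 changes in enrichment of 1.02 and 0.08 in the authors' deposited table. Input tags are not in the tables, so the level of Nes mRNA was not measured here, and in such bulk RNA fewer cells of a type and less RNA per cell cannot be told apart. Scramble tags of the Zic2, Pou3f1 and set 2 Nes peaks are not listed, and the same comparison could not be made for them.

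**Figure D3:**
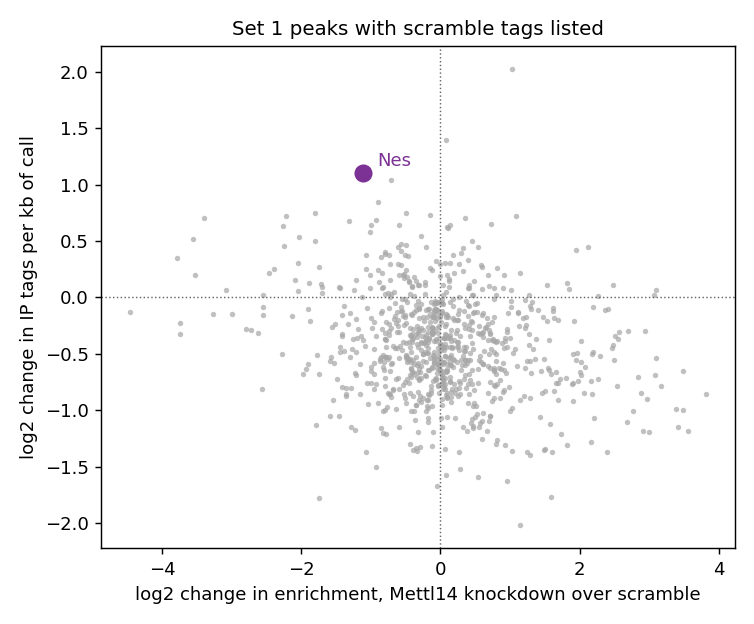
Log2 change in enrichment (x axis) against log2 change in IP tags per kb of call (y axis) with Mettl14 knockdown in set 1, 1 point for each of the 879 shared peaks whose scramble tags were listed. Nes lies at -1.12 and 1.10, in the upper left with 10.4% of the peaks and near their upper edge.

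Set against the whole tables, being lower was common, and nothing is read from the members' counts, since the genes were chosen on this contrast. Every listed peak of all 3 genes was lost or lower in all 4 tables, the property they were chosen for. That held for 57.8% and 70.5% of listed genes with Mettl14 knockdown in set 1 and set 2, and for 49.6% and 75.6% with Mettl3 knockdown. It held in both sets for 41.7% of genes listed in both Mettl14 tables and 33.5% for Mettl3, and in all 4 tables for 25.0% of the 3672 genes listed in all 4. Of shared peaks, 54.6% and 84.8% were lower with Mettl14 and 35.2% and 93.0% with Mettl3 knockdown. Of scramble peaks, 43.3% and 45.9% were lost with Mettl14 and 45.4% and 41.9% with Mettl3 knockdown. Nes accounts for the 3 lost rows of the members, all in set 1, and no member had a new peak.

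The sizes of the changes are placed among all shared peaks in the same way, as a description. Of their 11 shared rows, 8 were lower by at least 2-fold, which held for 11.3% and 26.8% of all shared peaks with Mettl14 and 6.62% and 44.2% with Mettl3 knockdown. The Pou3f1 changes were equalled or exceeded by 11.5% and 7.35% of shared peaks with Mettl14 knockdown and by 6.67% and 6.80% with Mettl3 knockdown. For Zic2 the shares were 6.50% and 8.73% in the Mettl14 tables and 31.2% and 10.5% in the Mettl3 tables. The Nes shares were 9.28% and 5.98% with Mettl14 knockdown and 4.38% with Mettl3 knockdown in set 2. All values but that of Zic2 with Mettl3 knockdown in set 1 thus lay among the lowest 4.38% to 11.5% of their table. With each table's median set to 0 the 11 changes ran from -1.59 to -0.30. Knockdown calls wider than their scramble call were 8 of 11 among the members (3 of 3 for Nes, 4 of 4 for Pou3f1, 1 of 4 for Zic2). Such calls made up 22.6% and 27.0% of shared peaks with Mettl14 and 21.1% and 20.1% with Mettl3 knockdown. Width belongs to the same contrast as the choice of members and is given as a description only.

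**Figure D4:**
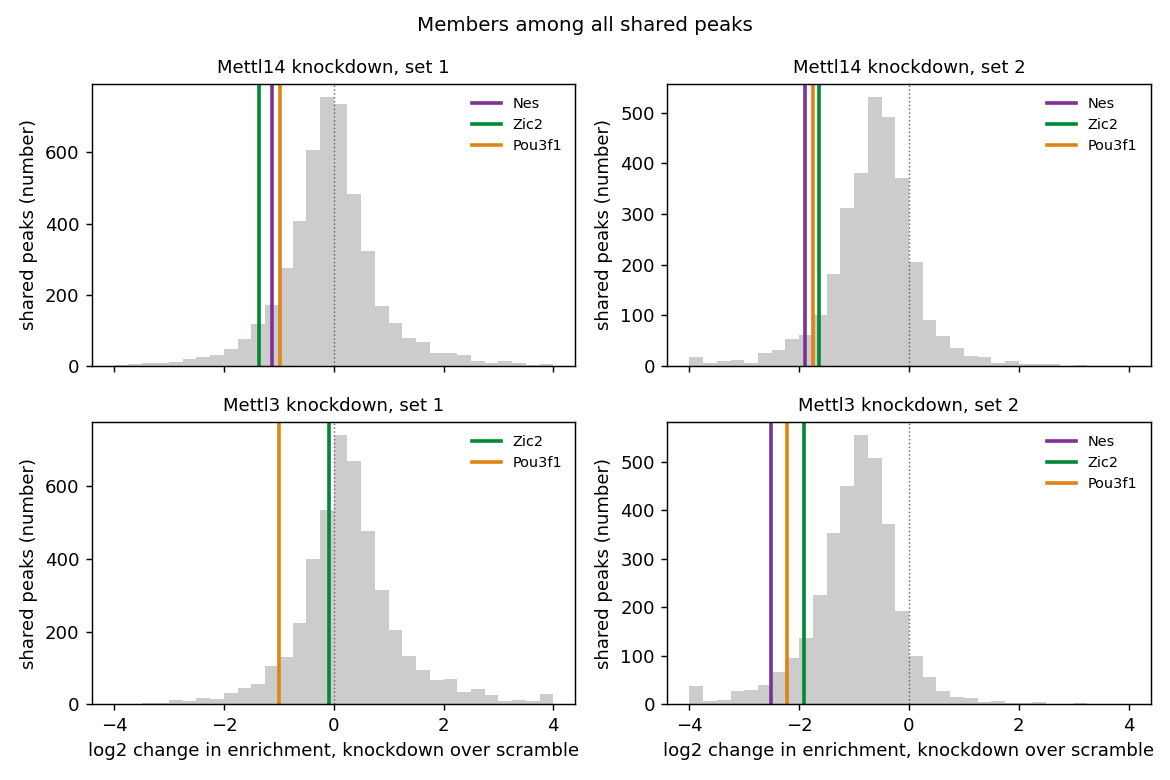
Number of shared peaks (y axis) by log2 change in enrichment of knockdown over scramble (x axis, bins of 0.25, values beyond 4 in the outer bins) in the 4 tables, with coloured lines for Nes, Zic2 and Pou3f1. Zic2 with Mettl3 knockdown in set 1 lies at -0.08 near the centre, and the other 10 lines lie between -2.51 and -0.99, left of the centre.

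Position and sequence were not used to choose the genes. All listed summits of Zic2 and Nes lay in coding sequence, as did those of Pou3f1 in 3 of the 4 knockdown libraries, at 491 to 589 nt behind the start codon. In the Mettl14 knockdown library of set 1 the Pou3f1 summit lay 30 nt past the first base of the stop codon. The tables list no scramble summit for Pou3f1 or Zic2. Nes summits lay 1552 to 3993 nt before the stop codon. Over all knockdown calls on coding transcripts 68.8% of 15462 summits were in coding sequence and 27.5% within 200 nt of the stop codon. All member summits lay in exons of at least 1000 nt, as did 76.9% of all knockdown summits and 65.6% of summits of lost scramble peaks. Summits both in coding sequence and in such an exon made up 52.0% of knockdown summits and 35.9% of those of lost scramble peaks.

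The m6A motif was searched as GGACT and, more loosely, as GGAC, which contains every GGACT match, on the transcribed strand only. The scramble calls of the 3 genes held 8 GGACT matches, 3 in Pou3f1, 3 in Zic2 and 2 in Nes, and 32 GGAC matches. All 3 GGACT matches of the Zic2 transcript lay in its calls in all 6 libraries. Zic2 scramble calls held 2.28 and 2.64 GGACT per kb of transcript, Pou3f1 scramble calls 1.96 and 2.06, and the downstream Nes scramble call of set 1 held 1.45. All knockdown calls held 1.74 per kb, and scramble peaks lost in a knockdown held 1.65. The upstream Nes call and the set 2 Nes scramble call held no GGACT, while 63.8% of lost scramble peaks and 69.2% of knockdown calls of 600 to 700 nt held at least 1. They held 4 and 3 GGAC. Within 101 nt windows centred on the summit, GGACT was present in 24.7% and GGAC in 60.9% of all knockdown calls.

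Summits and motifs did not always coincide, as the printed sequences show. The nearest GGACT lay 251 to 260 nt upstream of the 4 Zic2 summits, with a GGAC at 30 to 39 nt. For the coding Pou3f1 summits it lay 235 to 333 nt downstream, and for the summit at the stop codon 19 nt upstream. A GGAC lay closer to the coding Pou3f1 summits. It was 53 nt downstream for Mettl14 knockdown in set 2 and 54 nt downstream for Mettl3 knockdown in set 1. For Mettl3 knockdown in set 2 it was 15 nt upstream, and the 101 nt window held 3 GGAC. For Nes the nearest GGACT lay 24 nt from the Mettl3 knockdown summit of set 2 and 350 to 464 nt from the Mettl14 knockdown summits. The wide Mettl14 knockdown call of set 2 took in 8 of the Nes GGACT matches, the scramble call of that set none. Per kb, that wide call held 1.79 GGACT, beside 1.80 in the whole Nes transcript. The Pou3f1 knockdown calls took in a further GGACT, in the 3′ untranslated region at 124659520 on chromosome 4, which neither scramble call reached.

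A wider list of 40 neural and primitive ectoderm genes, members included, put the 3 genes in context. It was written with results of these data known, so it gives no independent evidence. Of the 40, 26 were listed in at least 1 table and 17 in all 4. With Mettl14 knockdown 6 of the 19 listed in both sets were lower in both (31.6%, beside 41.7% of all genes) and 3 were higher in both (15.8%, beside 7.60%). With Mettl3 knockdown 6 of 17 were lower in both (35.3%, beside 33.5%) and 3 were higher in both (17.6%, beside 5.82%). Both counts of lower genes include the 3 members, which were chosen for being lower. The shares lower are therefore raised by that choice, and neither carries a test. The shared peaks of the list without the 3 members had median log2 changes of -0.42 and -1.33 for Mettl14 (17 and 9 peaks) and 0.38 and -0.49 for Mettl3 (20 and 13 peaks) in the authors' deposited tables. The medians of all shared peaks were -0.06, -0.59, 0.22 and -0.91.

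Lower in all 4 tables were Nes, Zic2, Pou3f1, Sox11 and Sall2. Sox11, a transcription factor of neural progenitors and young neurons, had scramble enrichments of 19.48 and 15.22 at a single peak (chr12:27341076-27342847 for Mettl14 knockdown in set 1). The 2 Mettl14 knockdown libraries called it at 7.20 and 6.72, the 2 Mettl3 knockdown libraries at 8.55 and 6.48. Its log2 changes in the authors' deposited tables were -1.58 and -1.54 for Mettl14 and -1.18 and -1.95 for Mettl3, at calls of 1729 to 1810 nt in all 6 libraries and thus at nearly constant width. Sall2, a zinc finger transcription factor, had peaks at 2 sites with log2 changes from -1.85 to -0.58 in the authors' deposited tables.

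Other genes of the list went the opposite way or split. Pou3f2, a close relative of Pou3f1 in neural cells, had no scramble peak and a new peak in all 4 knockdown libraries (chr4:22486938-22487473 for Mettl14 knockdown in set 1). Its tags numbered 39 and 35 for Mettl14, at enrichments of 303 and 41.2, and 25 and 22 for Mettl3, at 303 and 54.5. Those peaks rest on few tags, while those of Pou3f1, lower in all 4 tables, rest on 640 to 727. Fgf5, a growth factor of the primitive ectoderm, had a new peak in all 4 libraries as well, with 54 to 118 tags. Zfp521, a zinc finger factor of neural differentiation, had new peaks with Mettl14 knockdown in both sets (20 to 31 tags) and with Mettl3 knockdown in set 1 alone. Meis1, a homeobox factor, had a log2 change of -0.29 in set 1 and a lost peak in set 2 for Mettl14, but 2.44 and 2.33 for Mettl3, per the authors' deposited tables, the latter from calls of 11 and 16 tags.

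Likeness of each member to the 3454 other genes that had scramble peaks in set 1 and set 2 was measured as the Euclidean distance between patterns over the 6 libraries. A pattern was the log2 of 1 plus the highest enrichment, with the authors' constants, relative to its own mean. Pou3f1 was most like Sema6a (distance 0.31), a semaphorin, then Bicd2 (0.41) and Rnf19a (0.47), against a median distance of 2.10. Zic2 was most like Dock5 (0.31), Rundc1 (0.39) and Fam20c (0.40), against a median of 2.09. With Mettl3 knockdown in set 1 Dock5 had 17.97 beside 21.23 in scramble, Rundc1 37.21 beside 27.39 and Fam20c 40.78 beside 39.85. Here, as for the other members, the genes were picked on these same values. Nes was most like Ahnak (0.84), Marcks (0.95) and Fam168a (0.96), against a median of 3.71, all with no call for Mettl3 knockdown in set 1. Ahnak, a very large scaffold protein, also had the highest ratio of tags per kb with Mettl14 knockdown in set 2, 2.08-fold. That rank is among 483 of 3060 shared peaks, those lost with Mettl3 knockdown and so with scramble tags listed. The log2 change in enrichment of that Ahnak peak was -1.72 in the authors' deposited table. The libraries behind these patterns share depth and scramble references, and no p is given.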

How the data were processed

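IP libraries of J1 cells were compared in 4 deposited tables. Per the submitters' processing notes the reads were handled with, among others, TopHat2 2.0.6, Bowtie 0.12.7 and cutadapt 1.1, on mm10. Per the file headers, the authors called MACS peaks for each IP library against its own input and listed them by strand, and deposited for each peak a tag count, a fold enrichment (a ratio), the same ratio times 1 constant per table, a signed fold score of knockdown over scramble, a peak score (minus 10 times log10 of the p-value) and an FDR in percent. Not given in the sources used here are the version of the peak caller and the basis of the constants. All 6 libraries with no antibody have no column of their own and were not analysed here.

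From these, log2 changes were computed from the signed fold, and the scramble enrichment of a shared peak was solved from it; for the 1 shared Nes peak of set 1 it returned the listed 9.90. Genes counted as lower where no listed peak was new or had a log2 change at or above 0, and as higher where none was lost or had a change at or below 0. No test was made, since each table has 1 library per group and the genes were chosen by this readout. The members and lists were chosen with earlier results of these data known. Named from the list were genes lower in all 4 tables or higher in the 2 tables of a knockdown, and for each member the 3 genes nearest in pattern. Of the 6097 listed genes 6026 (98.8%) were in GENCODE M21. Motif density used calls at least 80% exonic. Alternatives were no constant, centring on the table's median, an FDR of at most 1%, single sets, 50% overlap, tags per kb and GGAC. Python 3.11.15 with pandas 2.3.3 was used, and the calls were tested on simulated data.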

Additional observations from a re-analysis of the deposited data

Results flagged for a closer look

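Rows with no gene name were not part of the comparisons. In set 1 some of them lay on the plus strand just upstream of Zic2, above the 3 tags that a count of 0 would allow. The scramble library had a peak with 19 tags and an enrichment of 66.97 at chr14:122474367-122474538, which ended 897 nt before the annotated start of Zic2 and is listed as lost with Mettl3 knockdown. With Mettl14 knockdown it was called at 28.28 with 16 tags, a log2 change of -1.39 in the authors' deposited table. That library had a further, new peak with 19 tags at 21.33, which ended 422 nt before the start (chr14:122474793-122475013). Set 2 lists no such peak within 2000 nt of any of the 3 genes.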

How the results depend on the processing

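Without the authors' constants, and with each table's median set to 0, every listed peak of the 3 genes was still lost or lower in all 4 tables. With a listed FDR of at most 1%, the peaks lost or lower went from 3 to 1 with Mettl14 knockdown in set 2, from 4 to 2 with Mettl3 knockdown in set 1 and from 3 to 1 in set 2, and the genes lower in both sets from 3 to 1 (Pou3f1) in each knockdown. For shared peaks only the FDR of the knockdown call is listed. Centring moved the Mettl14 set 2 log2 changes to -1.30 for Nes, -1.04 for Zic2 and -1.16 for Pou3f1, and the Mettl3 set 2 changes to -1.59 for Nes, -1.0 for Zic2 and -1.30 for Pou3f1. Leaving out the constant moved Zic2 with Mettl14 knockdown in set 2 to -1.27, and the Mettl3 set 2 folds from 5.68 to 3.46 for Nes, 3.77 to 2.29 for Zic2 and 4.64 to 2.82 for Pou3f1. The Nes change with Mettl14 knockdown in set 1 was -1.12 as enrichment over input and 1.54 as IP tags per kb. Tags per kb are not set against input, so the 2 values measure different things. The value of 1.54 is relative to the median of the shared peaks that were lost with Mettl3 knockdown, and was 1.10 before that. It could be had for no other member peak. Separate sites numbered 3 with either overlap, and GGAC in place of GGACT raised the matches from 8 to 32. In the list of 40, genes lower in both sets numbered 6 in each knockdown, and 3 with Mettl3 at an FDR of at most 1%. In set 1 and set 2 alone, 13 of 24 and 10 of 19 listed were lower with Mettl14. With Mettl3 it was 7 of 25 and 12 of 18. Among all listed genes the shares were 57.8% and 70.5% with Mettl14 and 49.6% and 75.6% with Mettl3. Genes higher in both numbered 3 in each, 1 with Mettl14 at an FDR of at most 1%, and 6 with Mettl3 without constants or centred. In single sets 6 of 24 and 4 of 19 were higher with Mettl14, and 12 of 25 and 4 of 18 with Mettl3. Shares over all genes are not given here for the single-set higher counts or the changed settings. The cause was not tested. The set 1 scramble calls of Nes hold 54 and 132 tags, and unknown read totals limit all comparisons between libraries.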
